A study of Mus musculus with 8 samples.

Results

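The response to IL-6R blockade was examined in MCT-1-silenced 4T1 cells by comparing the 2 RNA sequencing libraries of the shMCT-1 + anti-IL-6R group with the 2 libraries of the shMCT-1 + IgG group. These were 4 of the 8 libraries of the study, and the other 4 came from scramble cells given the same treatments. Genes with more than 1 CPM (counts of a gene scaled to the library total) in at least 2 of the 4 shMCT-1 libraries were examined, which kept 11964 of 54532 genes.

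4T1 is a mouse mammary carcinoma line used as a model of metastatic triple-negative breast cancer. The cells of all groups stably carried an shRNA plasmid and were kept in puromycin, with an shRNA against MCT-1 (gene Mcts1) in the shMCT-1 cells and a scramble control in the others, and whether each line was 1 clone or a pool was not stated in the sources used here. Cells received an antibody against mouse IL-6R at 100 ng/ml or IgG, and RNA was taken after 48 h. The series describes the replicates as independent biological ones, without saying how the cultures were separated, so that the p-values measure the spread between these libraries only.

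IL-6 binds the IL-6 receptor (Il6ra), either on the membrane or in soluble form, and the complex recruits the signal transducer gp130 (Il6st). Janus kinases bound to gp130 then phosphorylate STAT3, which enters the nucleus and switches on genes such as Socs3, a feedback inhibitor of the same receptor complex. An antibody against IL-6R keeps the ligand from the receptor, and in breast cancer cells the pathway is known for its part in invasion, survival and inflammatory cytokine production.

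The 4 shMCT-1 libraries had totals between 19839299 and 23448587 counts, and 1 CPM rested on 19.8 to 23.4 counts. Mcts1 (chrX:38600578-38613426) was at 6.32 and 6.18 CPM in the IgG libraries and at 6.70 and 4.92 CPM in the anti-IL-6R libraries of shMCT-1 cells, against 11.8 to 15.4 CPM in the 4 scramble libraries. It was lower in shMCT-1 than in scramble cells with a log2 fold change of -1.14 (adjusted p = 2.51e-05, edgeR's quasi-likelihood test), as the label says, and the antibody groups overlapped in shMCT-1 cells. The 6 epithelial markers summed to 3237.4 to 3291.4 CPM with IgG and to 3145.2 to 3409.3 CPM with anti-IL-6R. Of markers of other cells, 4 T cell genes were at 3 counts or fewer, 6 macrophage genes summed to 6.2 to 7.9 CPM with Adgre1, Cd163 and Ptprc at 3 counts or fewer, and 6 fibroblast genes summed to 12.7 to 16.2 CPM with Dcn, Col3a1 and Lum at 3 counts or fewer. The 4 endothelial genes summed to 0.6 to 1.9 CPM, with Tek and Kdr at 3 counts or fewer.

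No gene differed between shMCT-1 + anti-IL-6R and shMCT-1 + IgG beyond the spread between replicates after adjustment. The quasi-likelihood test of edgeR called 0 of 11964 genes (0%) at an adjusted p under 0.05, with 0.203 as the smallest adjusted p, that of 2 genes, and 1 from the third gene on, where DESeq2 called 11 genes and edgeR's exact test 9. At an unadjusted p under 0.05 there were 443 genes, fewer than the 598 that 5% of the genes make, and they were 341 lower genes (2.85%) and 102 higher genes (0.853%). Leaving out replicate 2 of the IgG group left 135 such genes, and leaving out replicate 2 of the anti-IL-6R group gave 1251. In what follows, brackets after the levels give the log2 fold change of anti-IL-6R against IgG and its 95% interval from edgeR, where an interval that leaves out 0 stands for an unadjusted p under 0.05, and genes said to be higher or lower did not pass the adjusted threshold. Counts of list members are to be read against the shares of all genes given above. With 2 libraries against 2, an exact permutation test cannot give a two-sided p below 0.333, so that the p-values rest on the spread that the model shares across all genes and all 8 libraries.

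The CPM of the groups did not overlap, with both anti-IL-6R libraries below both IgG libraries, in 2005 genes (16.8%), and with both above in 1441 genes (12.04%). With 2 libraries against 2, a random split separates the groups, in either direction, with a probability of 0.333. A lack of overlap by itself thus says little about a single gene. Of the variation in log2 expression among the 4 libraries, 31.4% lay between the treatments and 68.6% between replicates. Of the latter, 25.2% was in the IgG pair and 43.4% in the anti-IL-6R pair. The treatments take up 1 degree of freedom and the replicates 2. Each replicate degree of freedom thus held 34.3% on average, more than the 31.4% between the treatments. The median size of a log2 fold change was 0.08, and the median 95% interval reached 0.27 to either side. In 91.7% of the genes the interval lay within a log2 value of 1, that is, within 2-fold in either direction. Ratios between libraries also followed transcript length and GC content. Between the anti-IL-6R replicates the log2 ratio correlated at 0.29 with log2 length and at -0.22 with GC content. The median log2 fold change was -0.04 in the 2398 shortest genes. It was -0.05 in the 2392 genes of lowest GC content and 0.03 in the 2391 of highest. The part of length and GC content in the small list shifts below was not tested.

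Genes of the IL-6 receptor complex did not differ detectably between the groups, with intervals that leave room for moderate changes. The receptor gene Il6ra (chr3:89864059-89913196) was at 10.0 and 14.0 CPM with IgG and at 8.97 and 11.8 CPM with anti-IL-6R, and the groups overlapped (log2 fold change -0.21, 95% interval -0.61 to 0.19). Without replicate 2 of the IgG group, the Il6ra difference was 0.06. Il6st (chr13:112464070-112510086), the gene of gp130, was at 80.6 and 78.6 CPM with IgG and at 67.4 and 92.4 CPM with anti-IL-6R, which lay on either side of the IgG libraries (0.01, -0.27 to 0.29). Il6 itself had 6 and 4 counts with IgG and 0 and 2 counts with anti-IL-6R, too few to be tested, and the 0 allows up to 0.151 CPM in that library.

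Downstream of the receptor, the kinase gene Jak1 was at 131.5 and 119.1 CPM with IgG and at 115.0 and 142.9 CPM with anti-IL-6R (0.04, -0.19 to 0.28). Stat3 (chr11:100885098-100939540) was at 56.8 and 49.2 CPM with IgG and at 48.2 and 57.5 CPM with anti-IL-6R, with complete overlap (0.00, -0.24 to 0.24). The other kinases, Jak2 and Tyk2, differed by -0.13 and -0.05, and each had overlapping groups. The receptor gene Osmr for oncostatin M was at 4.26 and 4.27 CPM with IgG and at 3.38 and 4.19 CPM with anti-IL-6R (-0.17, -0.61 to 0.28), and Socs2, a feedback inhibitor of cytokine receptors, was at 7.64 and 8.70 CPM with IgG and at 6.15 and 7.51 CPM with anti-IL-6R (-0.26, -0.65 to 0.13). In both genes the treated libraries were below both controls by less than the intervals resolve. Stat5a, a related transcription factor, was at 13.6 and 11.1 CPM with IgG and at 9.33 and 9.79 CPM with anti-IL-6R, without overlap (-0.36, -0.73 to 0.00). Clcf1, the gene of a cytokine that also signals through gp130, was the 1 member of this list with an unadjusted p under 0.05 (-0.36, -0.69 to -0.03), although its groups touched, at 67.8 and 89.8 CPM with IgG and 67.9 and 54.9 CPM with anti-IL-6R. Without replicate 2 of the IgG group its difference was -0.14. Of 29 named components of the pathway, 26 were tested, with 14 lower, 12 higher and a median of 0.00, where 52.7% of all genes tested were lower and the median was -0.0078.

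Because Socs3 and Bcl6 are textbook STAT3 targets, the promoters of the 20 STAT3 target genes with an entry among the RefSeq windows (GRCm38.p6, 250 bases before to 50 bases after the start) were searched for the STAT site TTCNNNGAA, which reads the same on both strands. It was found in 3 of them, Socs3, Bcl6 and Icam1, and in 9.55% of all 27025 genes with a window (8.30% of all 32851 windows). The windows of Socs3 (chr11:117969317-117969616, minus strand) and Bcl6 (chr16:23988803-23989102, minus strand) are shown because their transcripts are a direct readout of STAT3 in the textbook account of the pathway, with the match in capitals. A match describes the letters and not a bound site.
Socs3: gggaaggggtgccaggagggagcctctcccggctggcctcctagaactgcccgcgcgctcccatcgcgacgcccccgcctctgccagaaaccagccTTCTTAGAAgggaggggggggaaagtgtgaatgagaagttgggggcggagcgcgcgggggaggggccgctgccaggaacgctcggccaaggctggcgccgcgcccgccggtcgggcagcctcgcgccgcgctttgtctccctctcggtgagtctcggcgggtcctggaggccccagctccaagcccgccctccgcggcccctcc
Bcl6: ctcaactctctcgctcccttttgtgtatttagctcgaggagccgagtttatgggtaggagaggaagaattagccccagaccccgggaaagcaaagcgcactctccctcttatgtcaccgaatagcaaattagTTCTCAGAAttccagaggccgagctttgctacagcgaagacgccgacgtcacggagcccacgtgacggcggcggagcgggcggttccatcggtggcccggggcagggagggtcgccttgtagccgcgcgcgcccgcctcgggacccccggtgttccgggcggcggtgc

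Socs3 (chr11:117966079-117970047) was at 17.7 and 17.4 CPM with IgG and at 16.0 and 14.8 CPM with anti-IL-6R. Both treated libraries were below both controls, and the difference was -0.19 (95% interval -0.47 to 0.09). In scramble cells Socs3 was at 27.8 and 22.0 CPM with IgG and at 25.7 and 26.6 CPM with anti-IL-6R, with overlap. Bcl6, a transcriptional repressor, differed by -0.08, and Icam1, an adhesion molecule for leukocytes, by -0.09 with a range of -0.48 to 0.26 when single libraries were left out.

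Of 24 STAT3 target genes, 23 were tested, with 11 lower, 12 higher and a median of 0.00. Fos (chr12:85473890-85477273), a subunit of the AP-1 transcription factor, was at 16.1 and 16.4 CPM with IgG and at 11.4 and 14.1 CPM with anti-IL-6R, lower without overlap (-0.34, -0.66 to -0.03). It was the 1 target with an unadjusted p under 0.05, and its difference was -0.18 without replicate 1 of the anti-IL-6R group. Mmp9 (chr2:164940780-164955850), a gelatinase that degrades basement membrane collagen, was at 205.0 and 181.0 CPM with IgG and at 235.5 and 233.9 CPM with anti-IL-6R, higher without overlap (0.28, 0.00 to 0.57). Junb, another AP-1 subunit, was at 488.8 and 506.5 CPM with IgG and at 612.5 and 518.2 CPM with anti-IL-6R (0.19, -0.03 to 0.40). The acute phase genes Lcn2, at 8.24 and 5.29 CPM with IgG and 4.89 and 6.28 CPM with anti-IL-6R, and Saa3, at 0.961 and 1.28 CPM with IgG and 0.756 and 1.23 CPM with anti-IL-6R, were near the lower end of what could be compared, with overlap and the wide intervals of -0.85 to 0.32 and -0.92 to 0.58. Myc and Ccnd1, a growth regulator and a cyclin of the G1 phase, differed by 0.10 and 0.04 with overlapping groups.

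Both lists together held 46 tested genes, 23 lower and 23 higher, and the 95% intervals of all 46 lay between -0.92 and 0.92. Of these, 30 had an interval within a log2 value of 0.5. A change of 2-fold or more was thus outside the interval of each of these genes, and the intervals of 2, Clcf1 and Fos, left out 0. The groups of 8 of the 46 did not overlap with anti-IL-6R lower, and those of 3 with anti-IL-6R higher, where 16.8% and 12.04% of all genes tested did so.

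**Figure D1:**
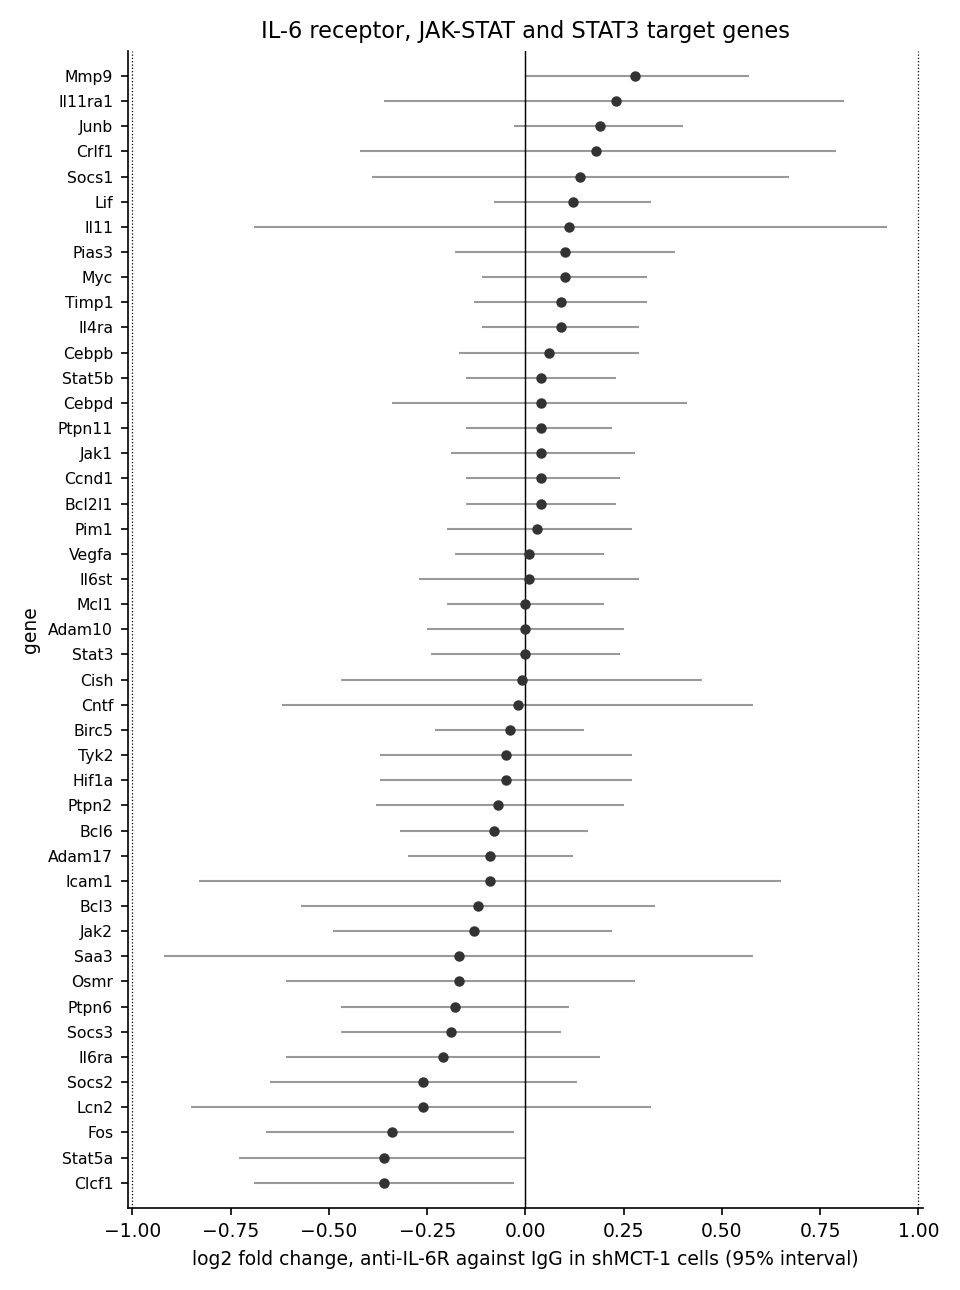
Log2 fold change (x axis) of shMCT-1 + anti-IL-6R against shMCT-1 + IgG for tested genes (y axis) of the IL-6 receptor and JAK-STAT3 list and of the STAT3 target list, with points for the estimate and bars for the 95% interval from edgeR. The estimates run from -0.36 to 0.28, and no bar reaches a log2 value of 1 in either direction.

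Other genes of the axis that the study is about were mostly at low levels. Ppbp, which encodes CXCL7, was at 0.778 and 0.299 CPM with IgG and at 0.454 and 0.820 CPM with anti-IL-6R, and it was not tested for lack of counts, as was its receptor gene Cxcr2. Cd274 (chr19:29367455-29388095), the gene of PD-L1, was at 1.01 and 1.11 CPM with IgG and at 0.756 and 1.37 CPM with anti-IL-6R, an overlap with an estimate of 0.02 and a 95% interval as wide as -0.82 to 0.85. Of 14 immune checkpoint ligands, 7 were tested and had a median of 0.02, with 0 members at an unadjusted p under 0.05.

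Hes1 and Dnajb9 were lower. The paper had found Hes1, Dnajb9 and Aldoc in the overlap of its RNA sequencing comparisons, anti-IL-6R against IgG in both backgrounds among them. Their differences here are therefore not independent of that choice. Hes1 (chr16:30064384-30067796), a repressor downstream of Notch, was at 76.3 and 105.0 CPM with IgG and at 68.3 and 69.6 CPM with anti-IL-6R, without overlap (-0.39, -0.72 to -0.07). Without replicate 2 of the IgG group the difference was -0.14. Dnajb9 (chr12:44205559-44210326), a chaperone cofactor of the endoplasmic reticulum, was at 8.19 and 10.0 CPM with IgG and at 6.00 and 7.24 CPM with anti-IL-6R, also without overlap (-0.46, -0.83 to -0.09), and without the same library it gave -0.30. In scramble cells the same comparison gave -0.35 for Hes1 and -0.40 for Dnajb9. Aldoc went the other way there, with 1.34 in scramble and -0.34 in shMCT-1 cells (interaction -1.68 ± 0.42 SE, not called). Its scramble level was near the floor, at 6 and 3 counts with IgG and 13 and 16 counts with anti-IL-6R.

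The mRNAs of the mitochondrial genome were the list with the highest share of members below an unadjusted p of 0.05, 12 of 13. These 13 mRNAs encode core subunits of the respiratory chain and of ATP synthase and are transcribed within the organelle. All 13 were lower in shMCT-1 + anti-IL-6R, the same 12 without overlap, and the median log2 fold change was -0.62. Their summed level was 11149.4 and 15229.6 CPM with IgG and 8409.1 and 8324.9 CPM with anti-IL-6R, so that both treated libraries were below both controls. In scramble cells the sums overlapped, at 20448.0 and 25025.3 CPM with IgG and 19546.3 and 22551.7 CPM with anti-IL-6R, with a median of -0.16 and 0 genes with an unadjusted p under 0.05. The difference between the backgrounds had an unadjusted interaction p under 0.05 in 4 of the 13, and edgeR called 0 interactions over all genes, with 277 at an unadjusted p under 0.05 and 5 called by DESeq2.

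Within the group, mRNAs of different respiratory complexes were lower to a similar degree. The complex I gene mt-Nd6 (chrM:13552-14070), which lies on the other strand from the rest, was at 318.6 and 412.8 CPM with IgG and at 234.5 and 222.0 CPM with anti-IL-6R (-0.68, -0.99 to -0.37). The cytochrome oxidase gene mt-Co1 (chrM:5328-6872) was at 3326 and 4727 CPM with IgG and at 2473 and 2599 CPM with anti-IL-6R (-0.67, -1.03 to -0.30). The IgG libraries of both genes differed from each other, with replicate 2 the higher, and the treated libraries lay below both. The complex I gene mt-Nd4 was at 1115 and 1436 CPM with IgG and at 824.8 and 849.8 CPM with anti-IL-6R (-0.61, -0.91 to -0.30), and the complex I gene mt-Nd1 and the cytochrome b gene mt-Cytb, named after their values were seen, gave -0.62 and -0.61. Without replicate 2 of the IgG group, mt-Co1 gave -0.39, mt-Nd1 -0.33 and mt-Cytb -0.35. The median of the list was -0.44 without replicate 2 of the IgG group and -0.86 without replicate 1, and the list stayed lower under each library left out. DESeq2 called 11 genes, all lower, of which 8 were genes of this genome. Since poly(A)-selected RNA of whole cultures was counted, fewer cells of a kind and less RNA per cell cannot be told apart.

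**Figure D2:**
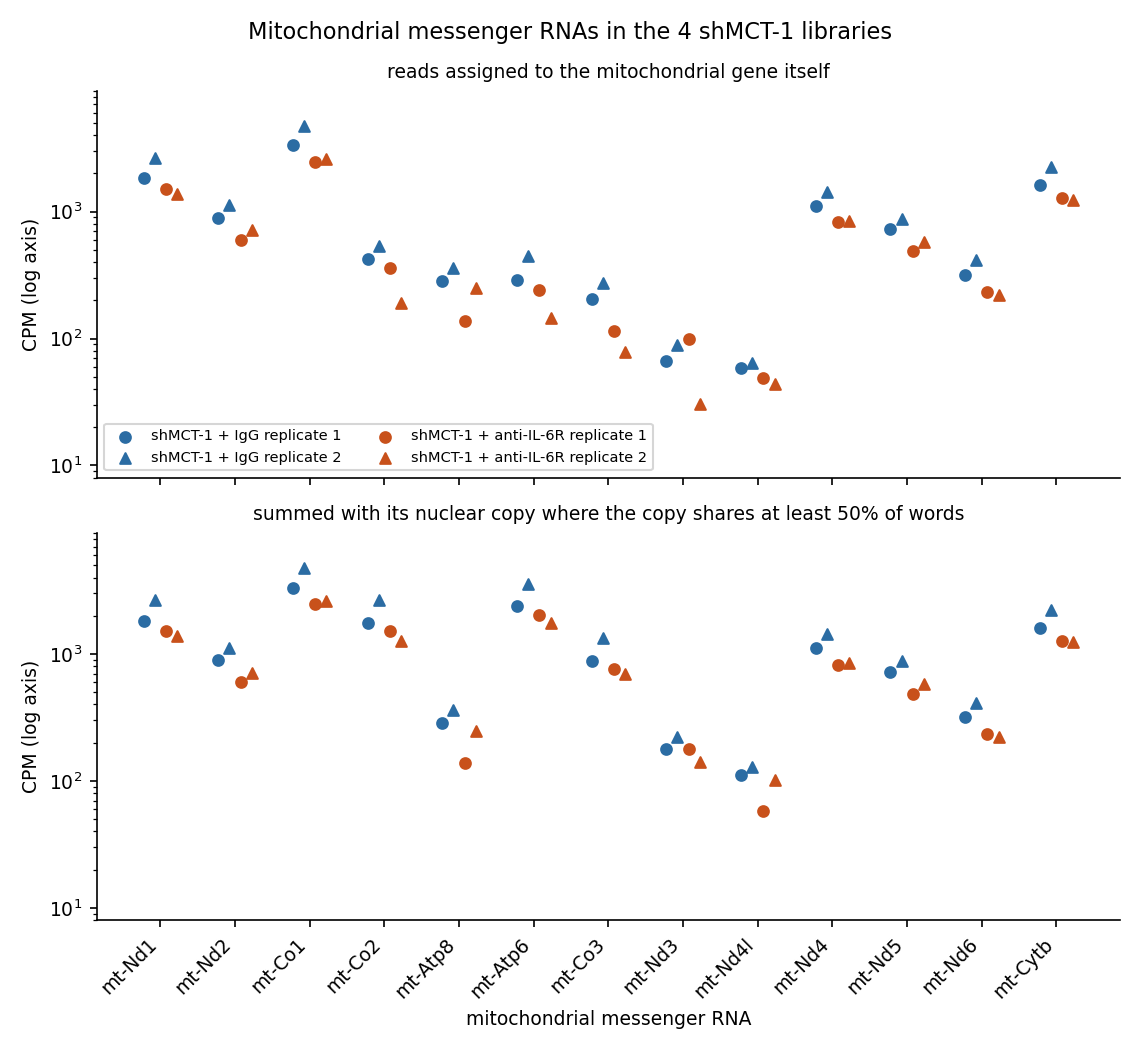
Level in CPM (y axis, log scale) of each mitochondrial genome mRNA (x axis) in the 4 shMCT-1 libraries, with 1 point per library, as counted for the gene itself (upper panel) and after adding a nuclear copy that shares at least 50% of its words (lower panel). In the upper panel both anti-IL-6R points lie below both IgG points for 12 of the 13 genes, the exception being mt-Nd3, whose points are mixed.

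The lowest p of this genome, that of the cytochrome oxidase gene mt-Co3 (chrM:8607-9390), depended on how reads were divided between copies. It was at 205.6 and 272.0 CPM with IgG and at 115.7 and 78.4 CPM with anti-IL-6R (-1.30, -1.70 to -0.89), and in scramble cells it was higher by 0.24 (interaction -1.54 ± 0.25 SE). In the GENCODE transcripts, 99.9% of its 50-base words also occur in Gm28437, a nuclear pseudogene copy, which was at 671.8 and 1070 CPM with IgG and at 650.0 and 614.5 CPM with anti-IL-6R. Reads from such stretches match both genes, and RSEM divides them by estimation. With the counts of both added, mt-Co3 was at 877.4 and 1342 CPM with IgG and at 765.8 and 693.0 CPM with anti-IL-6R, and the difference was -0.60 (95% interval -0.98 to -0.23). In scramble cells the sums overlapped, at 1548 and 1565 CPM with IgG and at 1438 and 1588 CPM with anti-IL-6R. The rise in scramble cells and the interaction of -1.54 thus hold only for mt-Co3 counted alone.

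The other mitochondrial mRNAs that share most of their words with a nuclear copy came to a similar value when summed with it. The sums gave -0.66 for mt-Atp6, -0.66 for mt-Co2, -0.58 for mt-Nd4l and -0.61 for mt-Nd4. For mt-Co1, 51.1% of the words occur in other genes, and its level summed with them was 3544 and 5082 CPM with IgG and 2712 and 2682 CPM with anti-IL-6R, again without overlap. The sum for mt-Nd3 gave -0.32 (-0.63 to -0.02), where mt-Nd3 alone was at 66.1 and 88.3 CPM with IgG and at 98.3 and 30.7 CPM with anti-IL-6R, with complete overlap. The 4 genes mt-Nd1, mt-Nd6, mt-Cytb and mt-Atp8 share 0.0% of their words with another gene and gave -0.61 to -0.74. With copies added, all 13 were lower with an unadjusted p under 0.05 and a median of -0.62, and the spread among them narrowed from between -1.30 and -0.26 to between -0.74 and -0.32. Their smallest adjusted p was then 1, and edgeR called 0 genes, with 438 at an unadjusted p under 0.05.

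A similar dependence was found for Srp54b (chr12:55155104-55189573), which encodes the GTPase subunit of the signal recognition particle and had, with mt-Co3, the smallest adjusted p of all genes. It was at 24.1 and 26.1 CPM with IgG and at 14.7 and 12.3 CPM with anti-IL-6R, without overlap (-0.90, -1.18 to -0.62, adjusted p = 0.203). It shares 83.9% of its words with Srp54a and 74.8% with Srp54c, neighbouring copies on the same chromosome. Summed, the 3 copies were at 159.0 and 145.9 CPM with IgG and at 143.4 and 163.3 CPM with anti-IL-6R, with overlap and an estimate of 0.01 (-0.25 to 0.27). Among the other named genes, Gm45062 (-2.48) and Glcci1 (0.68) share most of their words and gave -0.16 as a sum, Gm28539 (-3.14) gave 0.11 with Hira, and Gm20605 (-0.61) gave -0.05 with Lrch4. The partner genes of these sums were chosen after their values were seen. For Hist1h3i, Rps2-ps6 and Gm14434 at least 87.6% of the words occur in other genes, and their values are uncertain for the same reason.

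**Figure D3:**
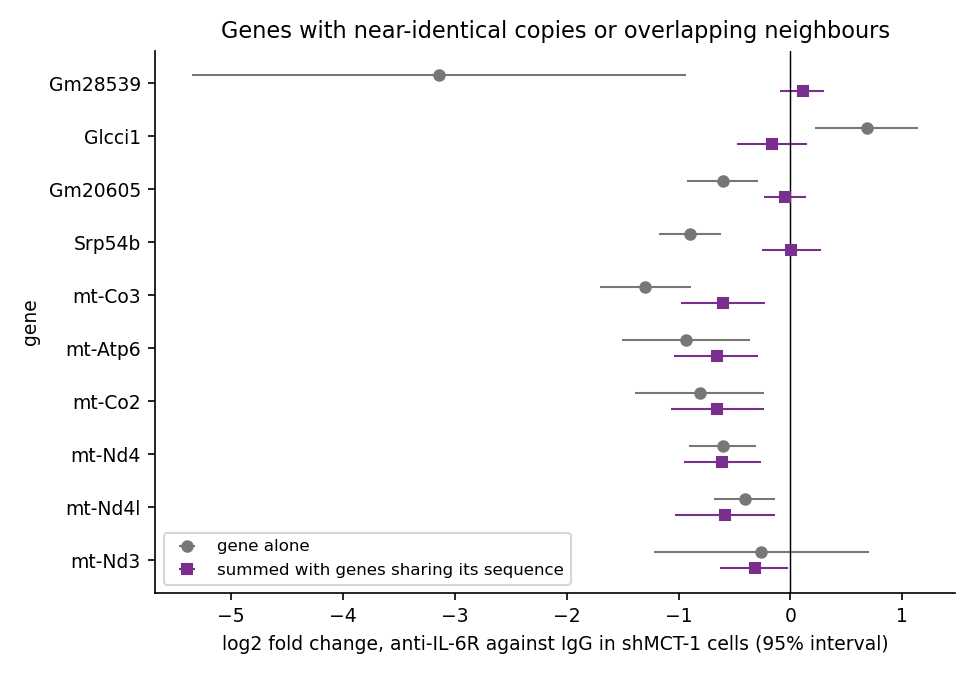
Log2 fold change (x axis) of shMCT-1 + anti-IL-6R against shMCT-1 + IgG for genes (y axis) counted on their own and after adding the counts of the genes that share at least 50% of their 50-base words, with 95% intervals as bars. The mitochondrial genes move together, to between -0.66 and -0.32, and Srp54b, Glcci1, Gm28539 and Gm20605 move to between -0.16 and 0.11.

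The ribosomal RNAs of the mitochondrial genome did not separate the groups. The gene of the small one, mt-Rnr1, was at 70.0 and 24.8 CPM with IgG and at 31.4 and 36.6 CPM with anti-IL-6R (-0.47, -1.24 to 0.30), and without replicate 1 of the IgG group the difference was 0.45. Libraries were made from poly(A)-selected RNA, and the methods also describe a step that removes ribosomal transcripts before PCR. Whether it covered the mitochondrial ones is not stated, and these levels rest on what was left.

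Nuclear genes of the respiratory chain were also more often lower, by less. Of 78 tested, 56 were lower with a median of -0.07, where 52.7% of all genes tested were lower. At an unadjusted p under 0.05, 7 of the list were lower and 0 higher, where 2.85% and 0.853% of all genes were. The median was 0.04 without replicate 2 of the anti-IL-6R group, and in scramble cells 26 were lower. Ndufb4, a subunit of complex I, was at 13.6 and 17.4 CPM with IgG and at 10.3 and 10.1 CPM with anti-IL-6R, without overlap (-0.60 ± 0.18 SE). Atp5l, a subunit of ATP synthase, was at 106.5 and 167.4 CPM with IgG and at 104.5 and 89.6 CPM with anti-IL-6R (-0.50, -0.90 to -0.09), and without replicate 2 of the IgG group its difference was -0.13. The summed level of the list overlapped between the groups, at 11949.1 and 12418.6 CPM with IgG and 12495.0 and 11117.8 CPM with anti-IL-6R.

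Cytosolic ribosomal protein genes were also more often lower. Of 82 tested, 72 were lower with a median of -0.10, which was 0.01 without replicate 2 of the anti-IL-6R group. Of these genes, 4 had an unadjusted p under 0.05, where 2.85% of all genes tested were lower at that threshold. Rps12 was at 1317 and 1777 CPM with IgG and at 1219 and 1098 CPM with anti-IL-6R, without overlap (-0.42, -0.74 to -0.09), and its difference was -0.18 without replicate 2 of the IgG group. The sum of the list was at 80110.3 and 87122.2 CPM with IgG and at 83425.1 and 72616.2 CPM with anti-IL-6R, with overlap. In scramble cells 14 of these genes were lower, where 46.8% of all genes were lower, and the median was 0.10.

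Long noncoding RNAs that host small nucleolar RNAs were lower as well. These transcripts have ends like those of ribosomal protein mRNAs, and their introns yield the guides of ribosomal RNA modification. All 14 tested were lower, 6 with an unadjusted p under 0.05, with a median of -0.36 that was -0.12 without replicate 2 of the IgG group and -0.65 without replicate 1. Snhg12 (chr4:132308623-132311024) was at 43.8 and 63.4 CPM with IgG and at 35.6 and 33.3 CPM with anti-IL-6R (-0.64, -0.99 to -0.29). Snhg20 (chr11:117076008-117078955) was at 10.7 and 12.03 CPM with IgG and at 8.01 and 6.78 CPM with anti-IL-6R (-0.62, -0.96 to -0.28), and in scramble cells it was higher by 0.12 (interaction -0.74 ± 0.20 SE). The groups of both genes did not overlap, with replicate 2 the higher of the IgG libraries, and without that library Snhg12 gave -0.34. Zfas1 was at 57.5 and 95.4 CPM with IgG and at 51.8 and 43.3 CPM with anti-IL-6R (-0.69, -1.13 to -0.24), and without replicate 2 of the IgG group it gave -0.27. This list was made after values had been seen.

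Long intergenic noncoding RNAs in general were lower in 107 of 148 tested genes, with a median of -0.20, and 72 were lower in scramble cells. At an unadjusted p under 0.05, 21 were lower and 0 higher, where 2.85% and 0.853% of all genes tested were. Their summed levels overlapped between the groups. The shift was not particular to them. Of processed transcripts 71.3% were lower, of processed pseudogenes 62.7% and of antisense genes 60.2%, where 52.7% of all genes tested were lower. All these kinds of genes were poorly expressed. Their median level was 2.43 CPM for long intergenic noncoding RNAs and 1.57 to 3.14 CPM for the others, against 33.81 CPM for protein-coding genes. The noncoding transcript 3110039I08Rik (chr9:41327077-41716994) was at 28.7 and 35.1 CPM with IgG and at 19.4 and 18.6 CPM with anti-IL-6R, without overlap (-0.75, -1.12 to -0.38). In scramble cells it was at 105.1 and 93.7 CPM with IgG and at 107.3 and 150.9 CPM with anti-IL-6R, higher by 0.37, and the interaction of -1.12 was not called.

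Interferon-stimulated genes, which encode antiviral proteins and are switched on by interferon receptors, were lower in 27 of 31 tested members, with a median of -0.16. Of all genes tested, 52.7% were lower, and 2.85% were lower with an unadjusted p under 0.05. Of the 42 named members of the list, the promoters of 33 had a RefSeq window. The interferon response element was searched on both strands as GAAA, any 2 bases and GAAA again. It was found in 14 of the 33 genes and in 3.99% of all genes with a window (3.44% of all windows). The windows of Isg15 (chr4:156200769-156201068, minus strand) and Stat2 (chr10:128270248-128270547, plus strand) are shown with the matches in capitals because these were the 2 members with an unadjusted p under 0.05, and Isg15 holds 3 matches.
Isg15: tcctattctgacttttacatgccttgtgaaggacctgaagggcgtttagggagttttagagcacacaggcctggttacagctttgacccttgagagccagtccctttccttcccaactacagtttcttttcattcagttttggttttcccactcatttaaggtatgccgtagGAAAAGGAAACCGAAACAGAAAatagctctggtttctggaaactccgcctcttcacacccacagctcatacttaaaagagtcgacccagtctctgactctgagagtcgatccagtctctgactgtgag
Stat2: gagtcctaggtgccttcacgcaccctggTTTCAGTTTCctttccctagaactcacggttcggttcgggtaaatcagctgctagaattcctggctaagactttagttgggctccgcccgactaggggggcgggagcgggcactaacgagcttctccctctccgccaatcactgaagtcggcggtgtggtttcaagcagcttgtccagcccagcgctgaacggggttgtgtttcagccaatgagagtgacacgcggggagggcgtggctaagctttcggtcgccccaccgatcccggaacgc

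Isg15 (chr4:156199424-156200818), a ubiquitin-like modifier, was at 4.39 and 4.56 CPM with IgG and at 2.07 and 3.01 CPM with anti-IL-6R, without overlap (-0.81, -1.36 to -0.27). In scramble cells its level was lower, at 0.436 and 0.498 CPM with IgG and at 0.608 and 0.665 CPM with anti-IL-6R (interaction -1.26 ± 0.44 SE). Stat2 was at 10.0 and 9.85 CPM with IgG and at 5.85 and 8.79 CPM with anti-IL-6R (-0.43, -0.84 to -0.03), and replicate 1 of the treated group was the lowest of the 4 libraries, without which the difference was -0.16. Ifi27 was at 15.5 and 19.7 CPM with IgG and at 12.7 and 13.8 CPM with anti-IL-6R (-0.41, -0.96 to 0.15). The sum of the list was lower with anti-IL-6R, at 431.3 and 450.4 CPM against 475.7 and 459.0 CPM with IgG, and its median was -0.09 without replicate 1 of the anti-IL-6R group. In scramble cells 16 of the 31 genes were lower, with a median of -0.01. Genes of MHC class I antigen presentation, which interferon also raises, were lower in 9 of 17 with a median of -0.01, and Tapbp, a loading factor for MHC class I, was at 128.8 and 119.2 CPM with IgG and at 141.4 and 141.1 CPM with anti-IL-6R (0.19, 0.01 to 0.37).

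Genes of NF-kB signalling and its feedback were more often higher with anti-IL-6R. Of 18 tested, 14 were higher, 2 of them with an unadjusted p under 0.05, and the median was 0.13, with 0.10 to 0.16 when single libraries were left out. Higher genes at that threshold made up 0.853% of all genes tested. Nfkb2 (chr19:46304320-46312385), the precursor of the p52 subunit, was at 297.0 and 283.1 CPM with IgG and at 361.1 and 326.2 CPM with anti-IL-6R (0.25, 0.06 to 0.44). Tnfaip3 (chr10:19000910-19015657), which encodes the inhibitor A20, was at 163.8 and 171.3 CPM with IgG and at 182.8 and 199.1 CPM with anti-IL-6R (0.19, 0.01 to 0.37). Both genes separated the groups, as did the sum of the list, at 1983.0 and 2068.2 CPM with IgG and 2207.3 and 2266.7 CPM with anti-IL-6R. In scramble cells 10 of the 18 genes were higher, with a median of 0.01.

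Of the chemokines, colony-stimulating factors and cytokines, 14 of 21 were tested, with 7 lower and 7 higher. Cxcl16 (chr11:70453983-70459984), a chemokine that attracts CXCR6-bearing lymphocytes, was at 107.3 and 108.0 CPM with IgG and at 142.0 and 126.5 CPM with anti-IL-6R, higher without overlap (0.32, 0.13 to 0.52). The scramble libraries were at 96.3 to 102.8 CPM in both treatments (interaction 0.33 ± 0.12 SE). Lif, a cytokine that signals through gp130, was at 77.3 and 88.3 CPM with IgG and at 88.9 and 90.6 CPM with anti-IL-6R (0.12, -0.08 to 0.32).

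**Figure D4:**
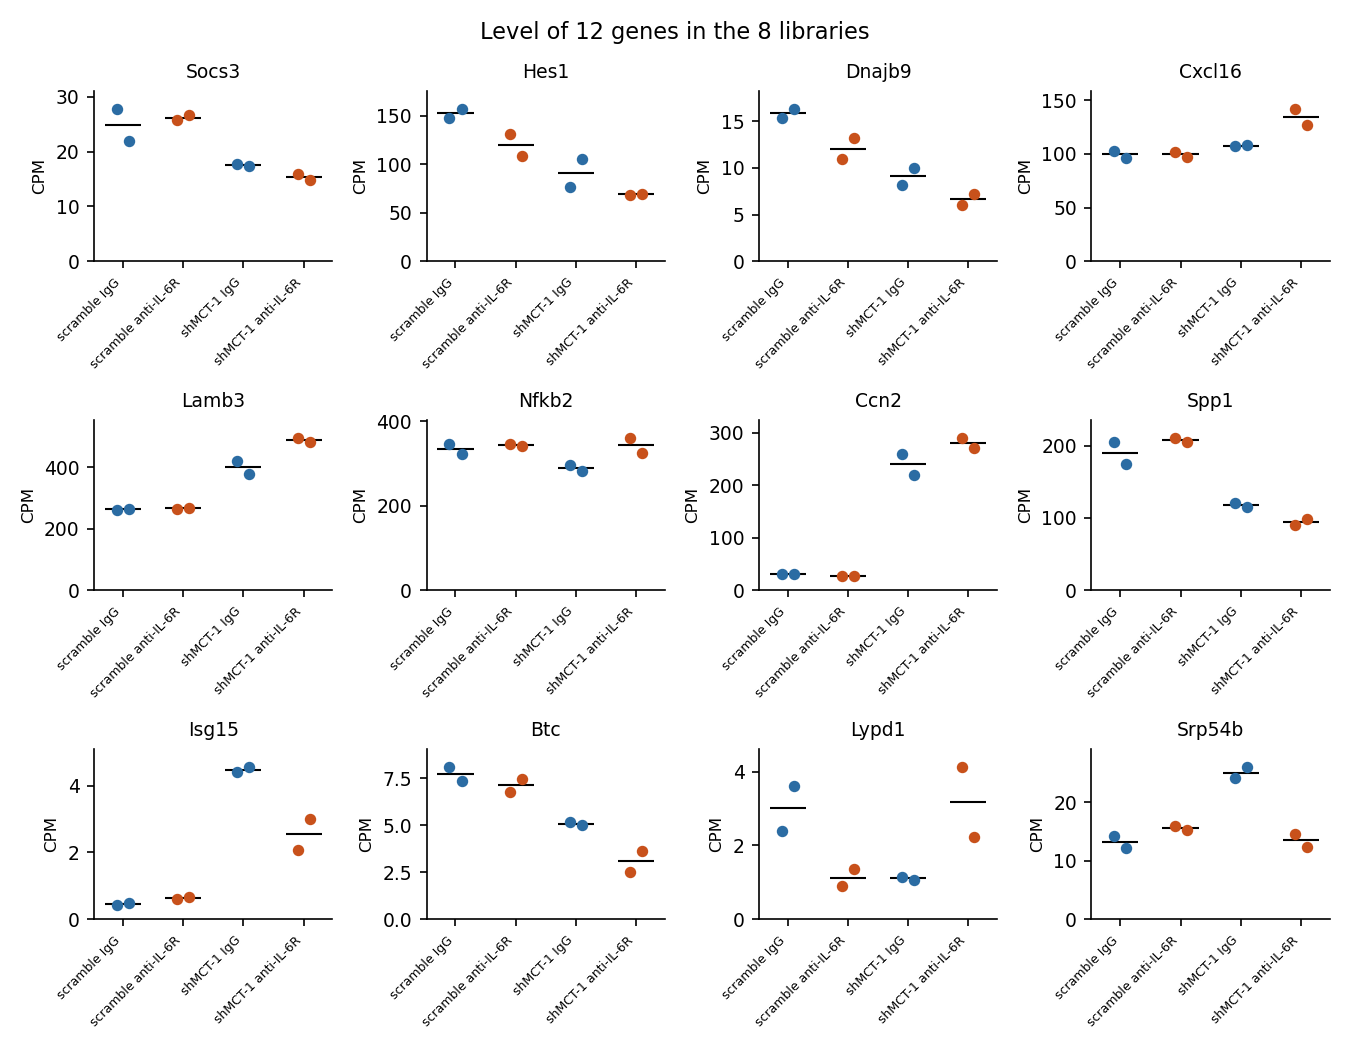
Level in CPM (y axis, from 0) of 12 genes in each library of the 4 groups (x axis), with points for libraries and bars for the mean of the group. Cxcl16, Lamb3 and Nfkb2 are higher in both shMCT-1 + anti-IL-6R libraries than in both shMCT-1 + IgG libraries, Socs3, Hes1, Dnajb9, Spp1, Isg15, Btc and Srp54b are lower, and Lypd1 goes the other way in scramble cells.

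Genes of cell attachment and matrix were more often higher by small amounts. Lamb3 (chr1:193207699-193343878), a chain of laminin-332 in the epithelial basement membrane, was at 420.8 and 379.4 CPM with IgG and at 496.7 and 483.3 CPM with anti-IL-6R, without overlap (0.29, 0.11 to 0.48). Its partner chain Lama3 was at 146.5 and 115.8 CPM with IgG and at 143.2 and 191.2 CPM with anti-IL-6R, with overlap and a difference of 0.35 that was 0.15 without replicate 2 of the anti-IL-6R group. Of 21 tested basement membrane and matrix genes 15 were higher, 3 of them with an unadjusted p under 0.05, but the median of 0.04 became -0.05 without replicate 2 of the anti-IL-6R group. Spp1 (chr5:104435118-104441050), osteopontin, was the 1 member of the list with an unadjusted p under 0.05 that was lower, at 120.2 and 115.2 CPM with IgG and at 90.3 and 98.5 CPM with anti-IL-6R (-0.32, -0.52 to -0.11), where scramble cells gave 0.13 (interaction -0.44 ± 0.13 SE).

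Of 32 tested genes of actin, myosin and focal adhesions, 30 were higher with a median of 0.10, yet 0 had an unadjusted p under 0.05. The median was 0.05 without replicate 2 of the IgG group and 0.16 without replicate 1. Their sum separated the groups, at 25785.3 and 23859.6 CPM with IgG and 26815.8 and 27154.4 CPM with anti-IL-6R, and the scramble sums overlapped. Sfn, the epithelial 14-3-3 protein, was at 151.1 and 142.7 CPM with IgG and at 191.7 and 157.9 CPM with anti-IL-6R (0.25, 0.02 to 0.49), and it was the 1 of 22 tested epithelial junction genes with an unadjusted p under 0.05. S100a4, a calcium-binding protein tied to metastasis, was at 613.6 and 729.5 CPM with IgG and at 587.3 and 530.4 CPM with anti-IL-6R, lower without overlap (-0.26, -0.49 to -0.03). The difference was 0.12 for Sfn without replicate 1 of the anti-IL-6R group and -0.13 for S100a4 without replicate 2 of the IgG group.

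TGF-beta and SMAD targets were higher in 17 of 21 with a median of 0.07, which was 0 without replicate 2 of the anti-IL-6R group. Ccn2, a matricellular protein and a target of YAP, was at 260.1 and 219.8 CPM with IgG and at 290.1 and 269.8 CPM with anti-IL-6R (0.22, 0.01 to 0.44, or 0.11 without replicate 2 of the IgG group), and scramble cells gave -0.20 (interaction 0.42 ± 0.14 SE). Smad7, the feedback inhibitor of the TGF-beta receptor, was higher by 0.20 without overlap (95% interval 0.01 to 0.39). YAP and TEAD targets were higher in 13 of 18 with a median of 0.04.

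Beyond the lists, Slc10a3, a transporter-like gene on the X chromosome, was at 12.9 and 12.2 CPM with IgG and at 15.7 and 17.4 CPM with anti-IL-6R, higher without overlap (0.40, 0.13 to 0.67), and scramble cells gave -0.06. Cant1, a nucleotidase of the Golgi, was at 51.3 and 49.9 CPM with IgG and at 58.4 and 60.8 CPM with anti-IL-6R (0.24, 0.06 to 0.42), also without overlap.

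Single genes of growth factor, survival and hypoxia lists were lower without a shift of their lists. Btc, which encodes the EGFR ligand betacellulin, was at 5.17 and 4.99 CPM with IgG and at 2.52 and 3.64 CPM with anti-IL-6R (-0.71, -1.16 to -0.27), and the difference was -0.46 without replicate 1 of the anti-IL-6R group. Birc2, the gene of the apoptosis inhibitor cIAP1, was at 16.3 and 16.4 CPM with IgG and at 11.9 and 13.3 CPM with anti-IL-6R (-0.37, -0.61 to -0.13). The death receptor gene Fas was at 8.19 and 8.49 CPM with IgG and at 6.60 in both treated libraries (-0.34, -0.65 to -0.02). Of 9 tested genes of the EGFR family and its ligands, Btc included, 5 were lower and 4 higher, with a median of -0.03. Erbb2, the receptor HER2, was at 63.2 and 61.2 CPM with IgG and at 71.0 and 68.4 CPM with anti-IL-6R (0.17, -0.02 to 0.35), and another ligand gene, Hbegf, was at 67.9 and 63.5 CPM with IgG and at 72.8 and 73.6 CPM with anti-IL-6R (0.16, -0.02 to 0.34). The groups of both did not overlap and both intervals hold 0. Of 23 tested apoptosis genes 13 were lower, with a median of -0.01.

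In the list of glycolysis and hypoxia genes, 3 of 34 were lower and 1 higher at an unadjusted p under 0.05, and the median was 0.01. Pfkfb4, which sets the level of a glycolysis activator, was at 10.1 and 10.8 CPM with IgG and at 7.86 and 7.83 CPM with anti-IL-6R (-0.41, -0.72 to -0.09). Car9, a carbonic anhydrase of hypoxic tumor cells, was at 14.2 and 15.4 CPM with IgG and at 11.7 and 11.3 CPM with anti-IL-6R (-0.36, -0.68 to -0.05). The aldolase gene Aldoc was at 14.1 and 14.6 CPM with IgG and at 11.3 CPM in both treated libraries (-0.34, -0.66 to -0.03), and in these 3 genes no IgG library overlapped a treated one. In scramble cells Aldoc was higher with anti-IL-6R, at levels of only 0.125 to 0.484 CPM.

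Lypd1 differed in opposite directions in shMCT-1 and scramble cells. The gene, which encodes a GPI-anchored protein of the Ly6 family, was at 1.14 and 1.07 CPM with IgG and at 4.13 and 2.23 CPM with anti-IL-6R in shMCT-1 cells (1.52, 0.65 to 2.39). In scramble cells it was at 2.40 and 3.61 CPM with IgG and at 0.896 and 1.36 CPM with anti-IL-6R, a difference of -1.41 in the other direction, and the interaction was 2.93. Bhlhe40, a repressor in the circadian clock, was at 151.5 and 137.4 CPM with IgG and at 172.8 and 163.0 CPM with anti-IL-6R (0.22, 0.03 to 0.40), and no difference was detectable in scramble cells (-0.06 ± 0.08 SE). Neither interaction was called, the smallest adjusted interaction p being 0.37.

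Genes of proliferation did not differ detectably between the groups. Of 40 genes of the G2 and M phases, 25 were higher with a median of 0.01, and of 43 genes of DNA replication, 22 were higher with a median of 0.00, with 0 members of either list at an unadjusted p under 0.05. The standard error of a gene in these lists had a median of 0.10 and 0.09. Genes of ribosome biogenesis and MYC targets were higher in 30 of 37, with a median of 0.07 and 0 at an unadjusted p under 0.05, and Bop1, a factor of large subunit assembly, gave 0.18. The groups of 12 of the 37 did not overlap with anti-IL-6R higher, and those of 1 with anti-IL-6R lower. Of all genes tested, 12.04% and 16.8% did so. The summed level of the list overlapped between the groups, and in scramble cells 24 of the 37 were lower. Proteasome subunits had a median of 0.01 over 31 tested genes, with Psma3 at 216.3 and 252.3 CPM with IgG and 205.7 and 193.4 CPM with anti-IL-6R as the 1 member at an unadjusted p under 0.05 (-0.23, -0.45 to -0.01), which was -0.11 without replicate 2 of the IgG group. ATF4 targets and amino acid genes were higher in 22 of 33 with a median of 0.03, with 1 lower and 1 higher at an unadjusted p under 0.05. The lower one, Ddit4, an inhibitor of mTORC1 signalling that stress raises, was at 108.8 and 121.8 CPM with IgG and at 97.7 and 91.8 CPM with anti-IL-6R (-0.28, -0.52 to -0.04). The higher one, the tryptophan tRNA ligase gene Wars, was at 145.3 and 130.1 CPM with IgG and at 165.7 and 153.6 CPM with anti-IL-6R (0.22, 0.00 to 0.43), and gave 0.14 without replicate 2 of the IgG group. Cholesterol and fatty acid synthesis genes, 32 tested with a median of 0.02, heat shock genes, 14 tested with a median of 0.03, and xenobiotic and glutathione genes, 30 tested with a median of 0.06, had 0 members at an unadjusted p under 0.05 by edgeR. Genes of the endoplasmic reticulum and the unfolded protein response had a median of 0.02 over 28 tested, with Dnajb9 as the 1 member at an unadjusted p under 0.05.

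**Figure D5:**
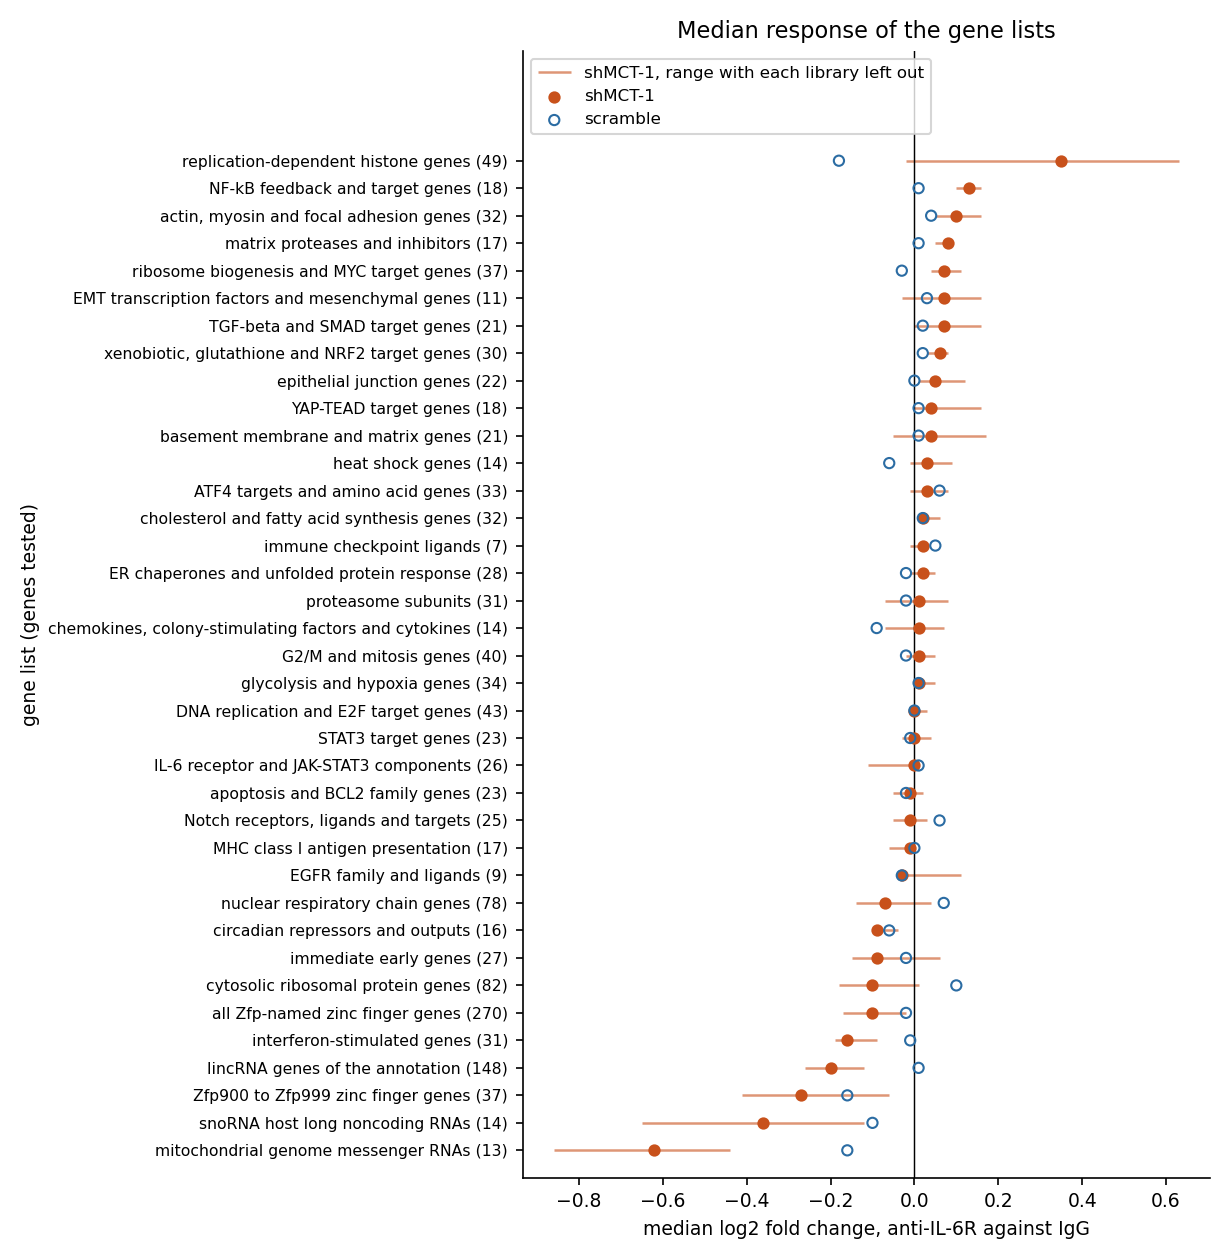
Median log2 fold change (x axis) of anti-IL-6R against IgG over the tested members of each gene list (y axis), in shMCT-1 cells (filled points, with lines for the range when each library is left out) and in scramble cells (open points). The mitochondrial genome mRNAs lie at -0.62 in shMCT-1 and -0.16 in scramble cells, and the IL-6 pathway and STAT3 target lists lie at 0.00 in shMCT-1 cells.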

How the data were processed

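RNA was sequenced from 4 shMCT-1 libraries of 4T1 cells, 2 with IgG and 2 with anti-IL-6R, and from 4 scramble libraries that share the fit. Per the methods, libraries came from poly(A)-selected RNA, and ribosomal and globin transcripts were depleted before PCR. Per the methods and the submitters' processing notes, the authors removed adapters using cutadapt 1.18, mapped the reads to mm10 using STAR 2.7.0d, counted them per gene of GENCODE M19 with RSEM and used edgeR, and deposited expected counts without normalization. Of the values above 0, 29.6% were not whole, and all were rounded to whole counts. The strand setting of the counting is not given in the sources used here. Coordinates came from GENCODE M21 (GRCm38), which held 54495 of the 54532 gene identifiers.

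Genes over 1 CPM in at least 2 shMCT-1 libraries were fitted with 4 group means over all 8 libraries by edgeR 4.0.16 (TMM, quasi-likelihood test, R 4.3.3), tested on simulated data, with Benjamini-Hochberg adjustment and a threshold of 0.05. Standard errors and intervals were worked back from each F statistic. The alternatives used DESeq2 1.42.0, RLE factors, edgeR's exact test, other filters, the 4 libraries alone, a replicate block, a loess correction for GC content and length (span 0.3), fits without mitochondrial genes and fits without each library. Shared sequence was measured as the share of 50-base words of a gene's transcripts found in another gene, and genes sharing at least 50% were summed. Hist1h3i, Rps2-ps6 and Gm14434 passed this share but were left unsummed.

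Named genes were Mcts1, the IL-6 pathway and STAT3 target members, the axis genes, the 12 with the smallest p in each direction and the 5 with the largest change at a mean of at least 1 CPM and without overlap, and the 3 members of each list with the smallest p. The members and the gene lists were chosen with earlier results of these data known, and the sums with copies, the noncoding RNA lists, the other mitochondrial genes and the genes sharing sequence were added after their values were seen. Some genes are not reported here or drawn in the figures.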

Additional observations from a re-analysis of the deposited data

Results flagged for a closer look

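The summed level of 2 gene lists moved in opposite directions in shMCT-1 and scramble cells, without overlap between the treatments in either, and the difference between the backgrounds was not tested. Immediate early genes, which respond to growth factors within minutes, summed to 2984.9 and 3009.2 CPM with IgG and 3197.3 and 3085.9 CPM with anti-IL-6R in shMCT-1 cells, a log2 ratio of 0.07. In scramble cells they summed to 3358.0 and 3359.1 CPM with IgG and 3294.9 and 3249.7 CPM with anti-IL-6R, a log2 ratio of -0.04. The median over the 27 members was -0.09 in shMCT-1 cells, with 17 lower, so that the sum and the median differ in sign.

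Circadian repressors and outputs summed to 440.2 and 432.4 CPM with IgG and 441.7 and 457.6 CPM with anti-IL-6R in shMCT-1 cells, a log2 ratio of 0.04, and to 580.9 and 567.6 CPM with IgG and 550.0 and 565.4 CPM with anti-IL-6R in scramble cells, a log2 ratio of -0.04. Of the 16 tested members 11 were lower in shMCT-1 cells, with a median of -0.09.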

How the results depend on the processing

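Against 443 genes at an unadjusted p under 0.05, the fits counted separately gave 282 with DESeq2 and 267 with a replicate block in the 4 shMCT-1 libraries alone, and testing without a filter, over more genes, gave 1129. Leaving out single libraries gave 135 to 1251, and 481 were found with a replicate block in all libraries. The count of called genes was 0 with RLE factors, both other filters, the 4 libraries alone, the replicate block, the loess correction, without mitochondrial genes and with copies summed. It was 11 with DESeq2, 9 with edgeR's exact test and 135 without a filter, of which 92 were among the genes tested here, and 0 to 1 without single libraries, the 1 being Gm10222 without replicate 2 of shMCT-1 + anti-IL-6R. For the interaction, DESeq2 called 5 and the fit without a filter 95, and leaving out libraries gave 0 to 8, with 8 without replicate 1 of scramble + IgG. The cause of these changes was not tested. The silencing of Mcts1 kept its call with RLE factors, with the replicate block and without single libraries, at -1.27 to -1.04 in the last.

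The labels do not say whether replicate numbers pair the samples. Replicate deviations correlated at -0.11 between the shMCT-1 groups and at -0.11 to 0.12 over all pairs of groups, which cannot decide it. The block changed no other call. Pairing replicate 1 with 2 in the 4 shMCT-1 libraries, a pairing for which the labels give no ground, called 67 genes. Signs turned in the following genes. With the block, Cd274 gave -0.01 and Il6st 0.00. With loess, Il6st gave -0.01, Mcts1 0.01, mt-Nd3 0.04 and Stat3 -0.03, and with loess and block Cd274 gave 0.00, Il6st -0.01, Mcts1 0.00 and Stat3 -0.02. Without single libraries the ranges were 0 to 0.10 for Ccnd1, -0.46 to 0.38 for Cd274, -0.48 to 0.26 for Icam1, -0.43 to 0.06 for Il6ra, -0.22 to 0.23 for Il6st, -0.10 to 0.21 for Jak1, -0.44 to 0.15 for Jak2, -0.55 to 0.08 for Lcn2, -0.55 to 0.15 for Saa3, -0.33 to 0.12 for Mcts1 under treatment, -1.31 to 0.37 for mt-Nd3, -1.04 to 0.45 for mt-Rnr1, -0.90 to 0.21 for mt-Rnr2, -0.07 to 0.30 for Srp54a, -0.11 to 0.14 for Stat3 and -0.21 to 0.14 for Tyk2. At 19.8 to 23.4 counts per CPM, genes such as Il6, Ppbp and Cxcr2 were below what these libraries could compare.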

Other observations

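Zinc finger genes named Zfp900 to Zfp999, most of them of the KRAB type that represses transposable elements, were lower with anti-IL-6R in shMCT-1 cells in 37 of 37 tested members, 4 with an unadjusted p under 0.05, and the median was -0.27. The summed level was 204.4 and 239.5 CPM with IgG and 182.1 and 202.0 CPM with anti-IL-6R, without overlap, and the median was -0.06 without replicate 2 of the IgG group and -0.41 without replicate 1. In scramble cells 30 were lower with a median of -0.16, and the summed level was also lower without overlap. Of all 270 tested genes with a Zfp name, 195 were lower with a median of -0.10.

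Replication-dependent histone genes were higher in 37 of 49 tested members in shMCT-1 cells with a median of 0.35, which was -0.02 without replicate 2 of the IgG group and 0.63 without replicate 1, and 12 were higher in scramble cells. Their mRNAs lack a poly(A) tail, and the summed level overlapped, at 192.9 and 128.7 CPM with IgG and 162.6 and 203.8 CPM with anti-IL-6R. Hist1h1d, a linker histone gene, was at 1.69 and 1.62 CPM with IgG and at 2.47 and 2.69 CPM with anti-IL-6R (log2 fold change and 95% interval 0.64, 0.12 to 1.16). Rn7s2, a copy of the 7SL RNA of the signal recognition particle, was at 71.1 and 48.5 CPM with IgG and at 99.7 and 245.8 CPM with anti-IL-6R, higher without overlap but with most of it in replicate 2 (1.53, 0.04 to 3.02, and 0.76 without that library).

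Among poorly expressed genes, Grtp1 was at 2.11 and 1.88 CPM with IgG and at 0.655 and 1.00 CPM with anti-IL-6R (-1.25, -1.95 to -0.54), and Acat3, a thiolase, was at 2.11 and 2.69 CPM with IgG and at 1.21 and 0.956 CPM with anti-IL-6R (-1.15, -1.79 to -0.50).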
